A study of Mus musculus with 6 samples.

Results

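Collagen chain genes are the rows of the gene count table whose symbol is Col, a type number, the letter a and a chain number, such as Col1a1. There were 44 such genes among 24015 symbols, and 34 of them had enough counts to be tested. Their transcripts were counted in cultures of primary fibroblasts from mammary tumours (cancer-associated fibroblasts, CAFs) of BalbC mice with the NeuT transgene, an activated rat Her2/neu, by sequencing of poly(A) RNA. All cultures were given siRNA in nanoparticles for 72 hours at 1 ug/mL, a control siRNA in 3 samples and one against Stat3 in the other 3, which asks which genes depend on the transcription factor STAT3. Samples of the 2 groups that share a replicate number resembled each other and are called a pair. The labels do not say whether a number stands for an animal or a culture, or that replicates came from separate ones. The p-values therefore reflect the spread among these 6 samples alone. In fits with the pair as a block it is the spread of the change between pairs. Pairs differed widely in markers of other cells, as given below, but whether they stand for separate animals is not known. How far the p-values reach beyond these samples is therefore not known either.

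Collagens are the main structural proteins of the extracellular matrix. Each chain carries repeats with regularly spaced glycines, and chains wind into helical trimers of 1 or several kinds of chain. Fibrillar collagens form the banded fibrils that give tissue its tensile strength. FACIT collagens sit on the surface of those fibrils. Network collagens form the sheets of basement membranes, short-chain collagens form hexagonal lattices, beaded filament collagens form microfibrils around cells, and transmembrane collagens stay anchored in the cell membrane. CAFs are known as a main source of the fibrillar collagen of mammary tumours.

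Samples held between 12998168 and 18683852 counts in all, so that 3 counts, the level that a count of 0 allows, correspond to 0.159 to 0.230 CPM, a count divided by its library total and multiplied by a fixed factor. This limit covers counting error only. Library totals for CPM were corrected with TMM factors, and every change is a log2 ratio with control siRNA as the denominator. Stat3 itself had 220 to 405 CPM under control siRNA and 34.7 to 81.9 CPM under anti-Stat3 siRNA, without overlap, and changed by -2.38 ± 0.14 (SE) in edgeR with the pair as a block (adjusted p = 0.0027), but without the block its adjusted p was 1.00. The 10 fibroblast markers checked were all detected and tested, among them Pdgfra at 309 to 953 CPM. Macrophage markers differed widely between the pairs. The sum of 17 macrophage markers was 48.1 and 43.6 CPM in pair 1, 1842 and 1779 CPM in pair 2 and 2537 and 2892 CPM in pair 3 (control and anti-Stat3).

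Among the 34 tested chains, Col8a2 rose and Col24a1 fell under anti-Stat3 siRNA in 1 of the 5 fits run on all 6 samples, DESeq2 with the pair as a block. That fit called 1.66% of all 13284 tested genes, 0.873% higher and 0.783% lower. The other 32 chains did not pass in any of the 5 fits. In edgeR with the group alone 0 chains and 0% of all genes passed. At an unadjusted p under 0.05 that fit had 1 chain, Col8a2, which was higher, beside 1.77% of all genes (1.12% higher). Blocked edgeR also called 0 chains, beside 0.0602% of all genes, and had 10 chains (2 higher and 8 lower) at an unadjusted p under 0.05 beside 10.8% of all genes (5.63% higher and 5.2% lower). Blocked limma-voom and DESeq2 with the group alone called 0 chains, beside 0.0602% and 0.128% of all genes.

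Without pair 1 more genes passed, in the collagens as in the whole table. Blocked fits with a pair left out have few samples from which to estimate the spread of a gene. Their p-values lean mainly on the spread estimated across genes and are not stronger evidence than those of the fits on all 6 samples. Blocked edgeR then called 1 chain higher and 4 lower, beside 5.2% of all genes (3.02% higher and 2.18% lower), and blocked DESeq2 likewise 1 higher and 4 lower, beside 3.19% (2.03% higher and 1.17% lower). Col8a2, Col24a1, Col3a1 and Col12a1 were among the 5 chains of both fits. Without pair 2 both fits called 0 chains, beside 0.0225% of all genes in edgeR and 0.105% in DESeq2. Without pair 3 edgeR called 0 chains and 0% of all genes, and DESeq2 called Col8a2, beside 0.147% of all genes.

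The tested chains had a median of -0.15 for the log2 change fitted by edgeR without the block, against -0.0028 for all tested genes. By pair the medians of the chains were 0.15, -0.32 and -0.20, against 0.0011, -7.9e-06 and 0.012 for all genes. In pair 1, 23 of the 34 chains were higher under anti-Stat3 siRNA, whereas in pairs 2 and 3 it was 12 in each. All 3 pairs were higher for 7 chains and lower for 8, where the shares of all genes were 17.3% and 16.5%, 33.7% in sum. A pattern of higher in pair 1 and lower in pairs 2 and 3 was shown by 11 chains, where 12.4% of all genes showed it. Without control sample 2 the list's median was 0.032, and without anti-Stat3 sample 2 it was -0.35.

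**Figure D1:**
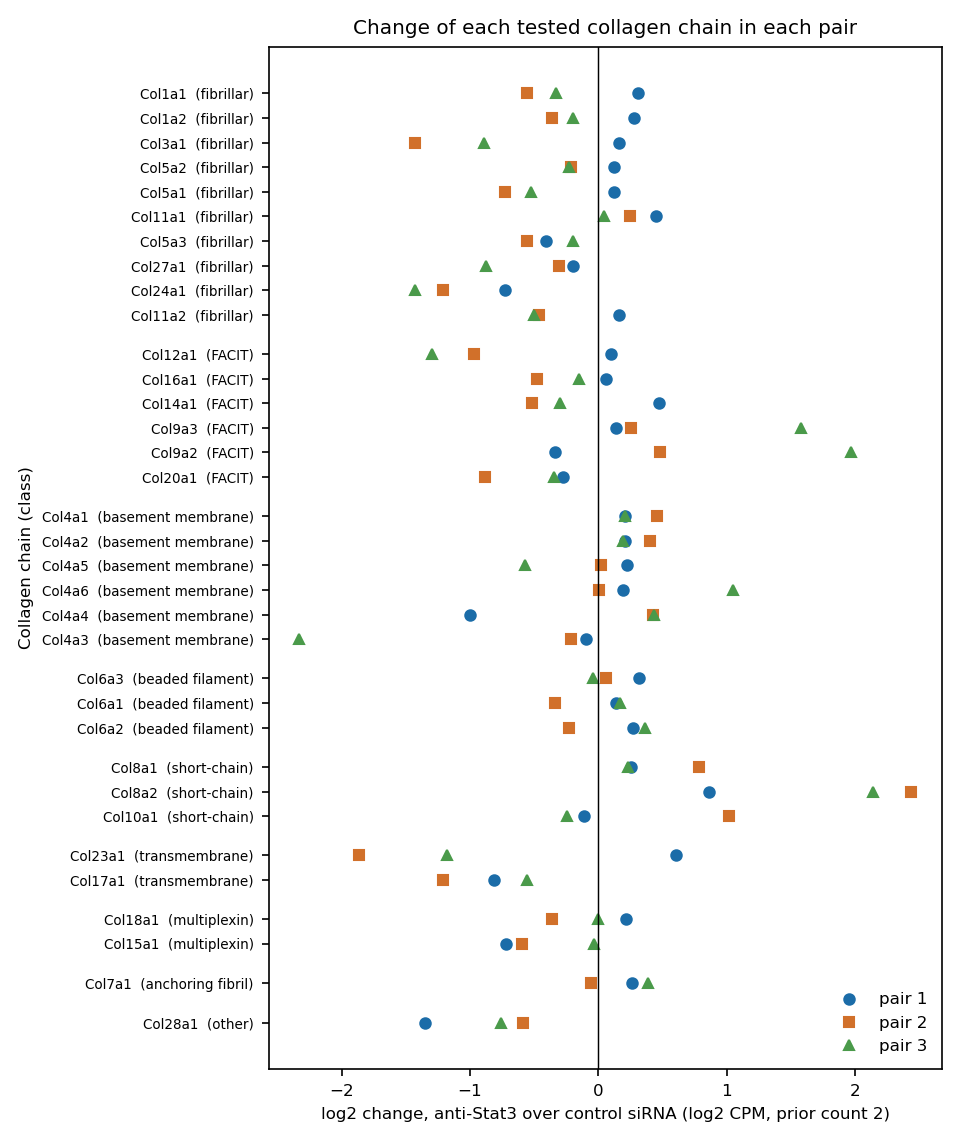
Change of each of the 34 tested collagen chains in each pair. Each point is the log2 change, anti-Stat3 over control siRNA, of 1 pair (x axis, log2 CPM with a prior count of 2), with chains on the y axis grouped by class and ordered by level. Col8a2 is the chain farthest to the right in pairs 2 and 3, at 2.44 and 2.14, and most abundant fibrillar chains are right of 0 in pair 1 and left of it in pairs 2 and 3.

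Collagen transcripts took a large and variable share of the libraries. The 44 genes together made up 3.75%, 9.68% and 8.77% of all counts under control siRNA and 4.29%, 6.70% and 6.88% under anti-Stat3 siRNA, in the order of the pairs. Pair 1 was the low pair in both groups, and the groups overlapped, with 7.40% ± 3.19 under control siRNA and 5.96% ± 1.45 under anti-Stat3 siRNA (SD, n = 3 each). The share was higher with anti-Stat3 siRNA in pair 1 and lower in pairs 2 and 3. The fibrillar class made up 70.4% to 82.3% of the collagen counts in every sample. The order of the other classes differed between samples. FACIT collagens took 5.54% to 15.3%, the basement membrane network with 3.29% to 10.9%, beaded filaments with 3.63% to 5.59% and short-chain collagens with 0.754% to 2.94%.

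**Figure D2:**
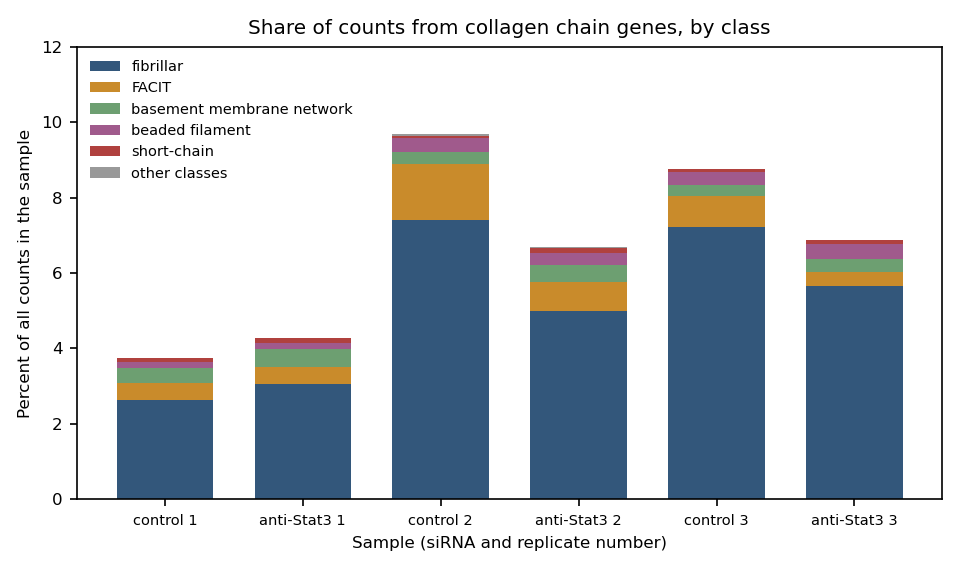
Share of all counts that collagen chain genes took in each sample (y axis, percent), with samples on the x axis ordered by pair and bars stacked by class. Both samples of pair 1 lie at 3.75% and 4.29%, below the 6.70% to 9.68% of the other 4 samples.

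Per length of transcript (CPM per kilobase, with lengths of the longest coding transcript in the GRCm38 annotation), the chains ranked under control siRNA from Col1a1 at 3019 ± 1532 and Col1a2 at 2898 ± 1356 through Col3a1 at 2383 ± 1642 and Col5a2 at 1207 ± 222 to Col12a1 at 769 ± 442 (SD, n = 3). Neighbours in this order overlapped in their ranges over the control samples. Col5a1, Col4a1, Col4a2, Col6a1 and Col8a1 came next, with means from 402 to 171 CPM per kilobase. After anti-Stat3 siRNA these same 10 chains filled the first 10 places, with Col1a2 at 2561 ± 814 and Col1a1 at 2437 ± 793 CPM per kilobase in front.

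Col8a2 had the largest change among the 34 tested chains. It encodes a chain of type VIII collagen, a short-chain collagen known from the membrane beneath the endothelium of the cornea. In the order of the pairs, it had 7.64, 10.6 and 8.75 CPM under control siRNA and 14.0, 58.3 and 39.0 CPM under anti-Stat3 siRNA. Every anti-Stat3 sample lay above every control sample, with a small distance in pair 1 and a large one in pairs 2 and 3. The counts behind these levels were 113, 201 and 146 against 223, 866 and 508. The group means were 9.01 ± 1.51 and 37.1 ± 22.2 CPM (SD, n = 3), and the pair changes were 0.86, 2.44 and 2.14. In blocked DESeq2 Col8a2 rose by 1.85 ± 0.29 (SE, adjusted p = 2.0e-07), which is 3.61-fold. In edgeR the log2 change was 2.04 ± 0.50 with the group alone (adjusted p = 1.00) and 1.88 ± 0.28 with the block (adjusted p = 0.145). The blocked DESeq2 call was lost without pair 2 (1.52, adjusted p = 0.092) and kept without pair 1 (2.31, adjusted p = 4.1e-17) and without pair 3 (1.69, adjusted p = 0.014). Blocked edgeR called it without pair 1 (2.31, adjusted p = 7.9e-07) and not without pair 2 or 3. The pairs with the larger change, 2 and 3, were also those with the high macrophage marker sums. In pair 1 these sums were 48.1 and 43.6 CPM (control and anti-Stat3). The part of macrophages in the change was not tested.

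Col8a1, the other chain of type VIII collagen, was much the more abundant of this type and had smaller changes. It had 1045, 711 and 859 CPM under control siRNA and 1249, 1226 and 1009 CPM under anti-Stat3 siRNA. The lowest anti-Stat3 sample, from pair 3, lay below the highest control, from pair 1, but each pair was higher under anti-Stat3 siRNA, by 0.26, 0.79 and 0.23. The log2 change of 0.43 ± 0.16 (SE) in blocked DESeq2 did not pass (adjusted p = 0.195). The count of Col8a1 per count of Col8a2 was 137, 66.8 and 98.1 under control siRNA and 89.4, 21.0 and 25.9 under anti-Stat3 siRNA. This ratio, which does not depend on library scaling, was thus lower in every pair, by 0.61, 1.67 and 1.92 on the log2 scale, though anti-Stat3 sample 1 lay above control sample 2. Col10a1, the short-chain collagen of hypertrophic cartilage, had 7.03 and 6.52 CPM in pair 1 and at most 1.95 CPM in the others, with pair changes of -0.11, 1.02 and -0.24. The short-chain class took 0.0875% ± 0.0174 of all counts under control siRNA and 0.121% ± 0.014 under anti-Stat3 siRNA (SD, n = 3), and it was higher in each pair.

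Col24a1 fell. It encodes a minor fibrillar chain known from developing bone and cornea, where it accompanies type I collagen. Its levels were 6.83, 23.7 and 19.7 CPM under control siRNA and 4.07, 10.2 and 7.21 CPM under anti-Stat3 siRNA. The groups overlapped because control sample 1 was below 2 of the anti-Stat3 samples, while each pair was lower, by 0.73, 1.21 and 1.43. Blocked DESeq2 gave a log2 change of -1.15 ± 0.24 (SE, adjusted p = 4.6e-04), which leaves 44.9% of the control level. The value was -1.23 ± 0.54 in edgeR with the group alone (adjusted p = 1.00) and -1.17 ± 0.17 with the block (adjusted p = 0.145). The blocked DESeq2 call was kept without pair 1 (-1.33, adjusted p = 6.2e-04) and lost without pair 2 (-1.11, adjusted p = 0.70) or pair 3 (-0.99, adjusted p = 0.78). In blocked edgeR Col24a1 passed without pair 1 (-1.33, adjusted p = 4.9e-04). Markers of bone-forming cells are given beside it. Alpl, an alkaline phosphatase of mineralising cells, fell in the same fit by 1.12 ± 0.31 on the log2 scale (adjusted p = 0.023). Runx2, a transcription factor of bone-forming cells, had 35.0, 40.4 and 37.8 CPM under control siRNA and 27.5, 33.6 and 26.8 CPM under anti-Stat3 siRNA, which did not pass in that fit (adjusted p = 0.39). Of the 10 cartilage and bone markers 4 were tested. In edgeR with the group alone 1 of these 4 had a positive log2 change, of 0.45. Blocked DESeq2 called 1 of them lower, Alpl, and 0 higher, beside 0.783% and 0.873% of all genes. The sum of the 10 markers ranged from 74.8 to 98.3 CPM under control siRNA and from 63.7 to 74.9 CPM under anti-Stat3 siRNA. The defining genes Acan, Ucma, Bglap and Ibsp had at most 1 count in any sample. The part of bone-forming cells in the change of Col24a1 was not tested.

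The promoters of the 2 called genes are shown to let their start regions be compared. They are RefSeq sequences of GRCm38.p6, 300 bases long, from 250 bases before to 50 after the start, whereas the counts were made on mm9. Capitals mark matches, on either strand, to the GC box GGGCGG, the CCAAT box, the TATA box TATAAA or the STAT motif TTCNNNGAA.
Col8a2 (chr4:126286544-126286843, plus strand): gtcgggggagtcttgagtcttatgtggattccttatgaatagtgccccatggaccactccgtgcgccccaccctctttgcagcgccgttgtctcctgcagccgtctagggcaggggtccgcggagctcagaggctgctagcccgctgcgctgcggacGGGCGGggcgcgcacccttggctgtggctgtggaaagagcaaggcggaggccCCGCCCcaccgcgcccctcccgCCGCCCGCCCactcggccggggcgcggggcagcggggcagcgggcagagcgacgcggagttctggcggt
Col24a1 (chr3:145292222-145292521, plus strand): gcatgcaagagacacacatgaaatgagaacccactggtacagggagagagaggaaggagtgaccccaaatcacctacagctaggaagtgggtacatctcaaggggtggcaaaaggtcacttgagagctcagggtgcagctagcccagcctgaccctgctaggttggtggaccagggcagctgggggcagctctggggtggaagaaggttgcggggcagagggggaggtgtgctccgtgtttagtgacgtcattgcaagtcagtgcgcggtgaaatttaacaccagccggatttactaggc
The Col8a2 window held 4 GC box matches, starting at bases 158, 210, 232 and 236 from its 5′ end, the last 2 of which share bases. The Col24a1 window held none of the 4 motifs. Of the 44 chains 35 matched a RefSeq entry, with 38 windows in all. The STAT motif was found in 2 of the 38 windows, those of Col28a1 and Col6a5, or 5.26%, against 8.30% of all 32851 windows. The GC box was found in 60.5% of the collagen windows and 35.7% of all windows, the CCAAT box in 34.2% and 37.4%, and the TATA box in 13.2% and 13.6%. A match is a description of the letters only.

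The abundant fibrillar chains followed the pairs. Col1a1 and Col1a2 together form type I collagen, the main fibril of most connective tissue. Col1a1 had 7417, 23429 and 22859 CPM under control siRNA and 9177, 15958 and 18213 CPM under anti-Stat3 siRNA. Pair 1 was low in both groups, and the siRNA samples differed by 0.31 in pair 1, -0.55 in pair 2 and -0.33 in pair 3 (log2). Col1a2 behaved alike, with pair changes of 0.28, -0.36 and -0.20. Neither passed in any fit, with blocked edgeR values of -0.19 ± 0.20 and -0.094 ± 0.181 (SE). There were 1.04, 1.15 and 1.20 counts of Col1a1 per count of Col1a2 under control siRNA and 1.06, 1.01 and 1.10 under anti-Stat3 siRNA, a 1.19-fold range over all 6.

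Col3a1, the single chain of type III collagen, which mixes with type I in pliable fibrils, had the widest fold range over the control samples of the 5 major fibrillar chains. The samples under control siRNA had 3098, 15896 and 20786 CPM and those under anti-Stat3 siRNA 3465, 5904 and 11240 CPM. Pair 1 was again low in both groups and nearly equal between them (0.16), while pairs 2 and 3 were lower by 1.43 and 0.89. The change of -0.72 ± 0.29 (SE) in blocked edgeR did not pass (adjusted p = 0.427), nor did the -0.72 ± 0.84 of blocked DESeq2 (adjusted p = 1.00). Without pair 1 Col3a1 was called lower in both fits (-1.16 ± 0.20, adjusted p = 0.0026 in edgeR and -1.15 ± 0.20, adjusted p = 5.8e-07 in DESeq2). Relative to Col1a1, the counts of Col3a1 were 0.418, 0.678 and 0.909 under control siRNA and 0.378, 0.370 and 0.617 under anti-Stat3 siRNA. This ratio was lower in each pair, by 0.15, 0.87 and 0.56 on the log2 scale, and was chosen after the values were seen.

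Type V collagen, which is built into type I fibrils and sets their diameter, had chains with unequal changes. Col5a1 had 1921, 3919 and 4307 CPM under control siRNA and 2094, 2372 and 2990 CPM under anti-Stat3 siRNA, with pair changes of 0.12, -0.72 and -0.53. Col5a2 was steadier, at 6377, 9247 and 8366 CPM against 6955, 7978 and 7134 CPM, with pair changes of 0.13, -0.21 and -0.23. The count ratio of Col5a1 to Col5a2 was 0.301 in both samples of pair 1, and lower with anti-Stat3 siRNA in pair 2 (0.424 and 0.297) and pair 3 (0.515 and 0.419). Col5a3, the least abundant of the 3 chains, was lower in each pair, by 0.40, 0.55 and 0.20, with -0.39 ± 0.11 (SE) in blocked edgeR and an adjusted p of 0.241. None of the 3 passed on all 6 samples. Without pair 1 blocked DESeq2 called Col5a1 lower (-0.62 ± 0.18, adjusted p = 0.022).

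The other fibrillar chains were far less abundant. Col27a1, a fibrillar chain of cartilage, had 14.8, 16.2 and 15.9 CPM under control siRNA and 12.9, 13.1 and 8.59 CPM under anti-Stat3 siRNA. Together with Col8a2 it made up the 2 tested chains whose groups did not overlap, beside 4.67% of all genes (2.45% higher and 2.23% lower). Its log2 change of -0.45 ± 0.16 (SE) in blocked edgeR did not pass (adjusted p = 0.362). Col11a1, which nucleates fibrils in cartilage and is known as a CAF transcript in carcinomas, had 74.5, 364 and 166 CPM under control siRNA and 102, 432 and 171 CPM under anti-Stat3 siRNA. It was the 1 fibrillar chain higher in all 3 pairs and did not pass (0.25 ± 0.12, SE, blocked edgeR adjusted p = 0.525). Col11a2 had 4.04 to 8.39 CPM, with pair changes of 0.16, -0.46 and -0.50. Of the 10 tested fibrillar chains, 9 had a negative log2 change in edgeR with the group alone and 1 a positive one, with a class median of -0.36. Over all 13284 tested genes 6575 had a positive one. The direction depended on the pair, as 7 of the 10 were higher in pair 1 and 1 in each of pairs 2 and 3. A pattern of higher in pair 1 and lower in pairs 2 and 3 was shown by 6, beside 12.4% of all genes. Pairs 2 and 3 were also those with the high macrophage marker sums, and the part of those cells in the fibrillar values was not tested. In bulk samples fewer cells of a type and less RNA per cell cannot be told apart.

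**Figure D3:**
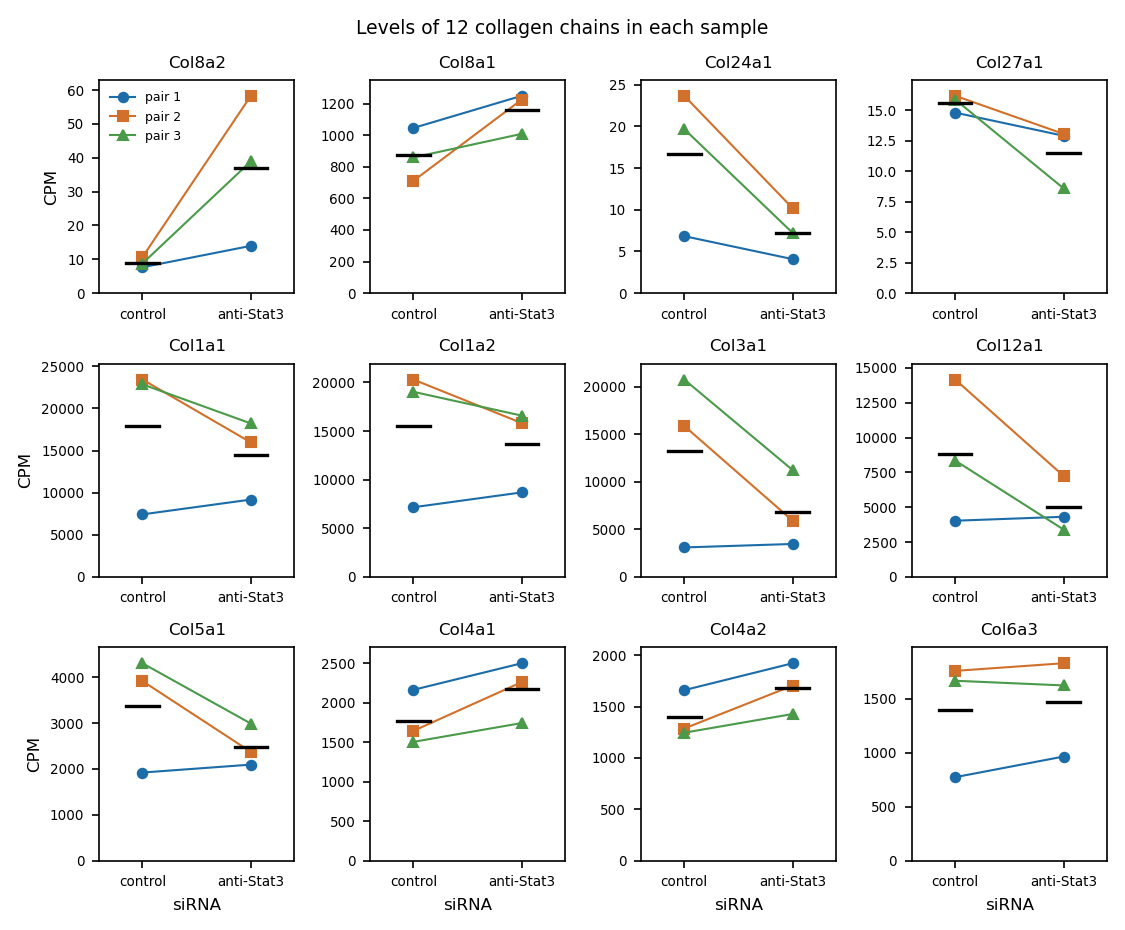
Levels of 12 collagen chains in each sample (y axes, CPM on a linear scale from 0) for control and anti-Stat3 siRNA (x axes). Lines join the 2 samples of a pair and black bars are group means. Col8a2 lies at 7.64 to 10.6 CPM with control siRNA and at 14.0 to 58.3 CPM with anti-Stat3 siRNA, while Col1a1, Col1a2, Col3a1 and Col5a1 start low in pair 1 and have lines that slope down in pairs 2 and 3.

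Among FACIT collagens Col12a1, which binds type I fibrils and links them in tissue under load, was by far the most abundant. The samples under control siRNA had 4029, 14165 and 8348 CPM and those under anti-Stat3 siRNA 4312, 7240 and 3395 CPM. The samples of pair 1 were nearly equal (0.10), and pairs 2 and 3 were lower by 0.97 and 1.30. On all 6 samples the change was -0.73 ± 0.27 (SE) in blocked edgeR (adjusted p = 0.375) and -0.73 ± 0.69 in blocked DESeq2 (adjusted p = 1.00). Without pair 1 it was -1.13 ± 0.19 in both, with adjusted p-values of 0.0018 and 1.4e-07. Col16a1, another FACIT collagen of fibrils and of cell attachment, had 300 to 411 CPM under control siRNA and 278 to 371 CPM under anti-Stat3 siRNA, and Col14a1 had 6.49 to 41.3 and 9.09 to 28.8 CPM. Both were higher in pair 1 and lower in pairs 2 and 3, like Col12a1. Col20a1 had 2.36 to 5.88 CPM and was lower in each pair, by 0.27, 0.88 and 0.34. Col19a1 and Col22a1 were too low to be tested, with at most 7 and 2 counts in a sample.

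The type IX chains marked a single pair. Col9a1, Col9a2 and Col9a3 form the FACIT collagen of cartilage fibrils and of the vitreous body. Col9a1 had 447 and 390 counts in control and anti-Stat3 sample 2, that is 23.7 and 26.3 CPM, and 0 to 5 counts in each of the other 4 samples. It was not tested, because 3 samples with sufficient counts were required. Col9a2 had 13.0 and 18.2 CPM in pair 2 and at most 0.84 CPM elsewhere, and Col9a3 15.2 and 18.2 CPM in pair 2 and at most 2.76 CPM elsewhere. Neither of these 2 passed in any of the 5 fits (blocked edgeR adjusted p = 0.563 and 0.554). Pair 2 was also the pair with the highest sums of 18 epithelial and tumour cell markers, 1672 and 1303 CPM against 107 to 461 CPM in the other samples. The sum of 6 Schwann cell markers was 86.8 and 78.6 CPM in pair 2 and 11.5 to 18.0 CPM in the others. Comp, a cartilage matrix protein that binds type IX collagen, had 9.90 and 14.8 CPM in pair 2 and at most 0.84 CPM elsewhere, while Acan and Col2a1, which define cartilage, had at most 1 and 13 counts in a sample. The part of other cells in these values was not tested.

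The main chains of the basement membrane network were slightly higher under anti-Stat3 siRNA in every pair. Col4a1 and Col4a2 form the common type IV collagen. Col4a1 had 2163, 1643 and 1504 CPM under control siRNA and 2500, 2261 and 1743 CPM under anti-Stat3 siRNA, with pair changes of 0.21, 0.46 and 0.21. Unlike Col1a1, Col1a2, Col3a1, Col5a1 and Col5a2 it was highest in pair 1. Col4a2 had 1660, 1287 and 1246 CPM against 1923, 1705 and 1428 CPM, with pair changes of 0.21, 0.41 and 0.20. Neither passed, at 0.29 ± 0.13 and 0.27 ± 0.13 (SE) in blocked edgeR (adjusted p = 0.478 and 0.50). Endothelial cells also make type IV collagen. The sum of 10 endothelial markers was 146, 132 and 200 CPM under control siRNA and 161, 172 and 253 CPM under anti-Stat3 siRNA, higher in each pair, and most of it was Eng, which fibroblasts express too. Of the 6 tested endothelial markers 4 were higher in all 3 pairs and 2 were lower in all 3. The shares of all genes were 17.3% and 16.5%. At an unadjusted p under 0.05 in blocked edgeR 3 were higher and 0 lower, beside 5.63% and 5.2% of all genes. In the 5 fits 0 passed. The defining markers Pecam1 and Cldn5 had at most 0.61 and 0.05 CPM in any sample. The sum of 10 pericyte and smooth muscle markers was highest in pair 1, as Col4a1 was, with 1808 and 2191 CPM (control and anti-Stat3). It was 538 and 494 CPM in pair 2 and 1017 and 906 CPM in pair 3. The sum was lower under anti-Stat3 siRNA in these 2 pairs. The list's 8 tested members had median changes of 0.28, -0.20 and -0.20 in the order of the pairs. In edgeR with the group alone 7 of the 8 had a positive log2 change. Higher in all 3 pairs were 2 and lower in all 3 were 0, beside 17.3% and 16.5% of all genes. Blocked edgeR had 2 higher and 0 lower at an unadjusted p under 0.05, beside 5.63% and 5.2%. Blocked DESeq2 called 1 higher and 0 lower, beside 0.873% and 0.783%. The part of these cells in the type IV values was not tested.

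The 2 genes lie next to each other on opposite strands of chromosome 8, and their start regions are shown for that reason. The windows share 78 bases, read on opposite strands, and capitals mark the same motifs as above.
Col4a1 (chr8:11312777-11313076, minus strand): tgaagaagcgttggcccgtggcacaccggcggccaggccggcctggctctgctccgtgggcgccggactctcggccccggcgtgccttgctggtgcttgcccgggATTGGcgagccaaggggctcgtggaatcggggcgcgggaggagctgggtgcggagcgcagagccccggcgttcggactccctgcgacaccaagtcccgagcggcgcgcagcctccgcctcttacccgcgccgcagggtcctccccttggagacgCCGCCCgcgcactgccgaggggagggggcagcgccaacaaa
Col4a2 (chr8:11312555-11312854, plus strand): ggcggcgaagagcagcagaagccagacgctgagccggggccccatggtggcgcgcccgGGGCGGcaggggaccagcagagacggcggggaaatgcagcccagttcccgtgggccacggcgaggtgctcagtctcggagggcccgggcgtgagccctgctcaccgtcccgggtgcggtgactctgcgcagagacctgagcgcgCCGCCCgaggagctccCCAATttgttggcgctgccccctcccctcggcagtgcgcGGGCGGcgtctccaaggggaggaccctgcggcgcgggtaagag
Each window held 1 match to the CCAAT box, at base 106 in the Col4a1 window and base 219 in the Col4a2 window. The GC box matched once in the Col4a1 window and 3 times in the Col4a2 window. The Col4a1 match, at base 260, and the Col4a2 match at base 258 are the same bases of the shared stretch, read on opposite strands. The count ratio of Col4a1 to Col4a2 was 1.30, 1.28 and 1.21 under control siRNA and 1.30, 1.33 and 1.22 under anti-Stat3 siRNA, a 1.10-fold range over the 6 samples. Of the 7 chain ratios computed this was the one with the narrowest range. Among other collagen genes next to each other in the RefSeq order, Col6a2 and Col6a1 on chromosome 10 had changes of 0.27 and 0.14 in pair 1, -0.23 and -0.34 in pair 2 and 0.37 and 0.17 in pair 3. Col3a1 and Col5a2 on chromosome 1 had changes of 0.16 and 0.13 in pair 1, -1.43 and -0.21 in pair 2 and -0.89 and -0.23 in pair 3. Col4a6 and Col4a5 on the X chromosome had 0.19 and 0.23 in pair 1, 0.0060 and 0.020 in pair 2 and 1.05 and -0.57 in pair 3, where Col4a6 had only 2 and 5 counts.

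The remaining type IV chains, which form the more specialised networks of kidney and other epithelia, were less abundant. Col4a5 had 234, 292 and 275 CPM under control siRNA and 275, 296 and 185 CPM under anti-Stat3 siRNA, with no common direction of the pairs. Col4a3, Col4a4 and Col4a6 had at most 2.26 CPM in any sample, and their changes rest on 1 to 36 counts per sample. The network class as a whole made up 0.341% ± 0.062 of all counts under control siRNA and 0.414% ± 0.069 under anti-Stat3 siRNA (SD, n = 3), and was higher in each pair.

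Type VI collagen, whose 3 main chains form beaded microfibrils around cells, had small changes in both directions. Col6a3 had 772, 1757 and 1665 CPM under control siRNA and 964, 1828 and 1622 CPM under anti-Stat3 siRNA, a blocked edgeR change of 0.11 ± 0.13 (SE). Col6a1 had 431, 1053 and 1110 CPM against 473, 833 and 1251 CPM (-0.0095 ± 0.145), and Col6a2 230, 663 and 745 CPM against 278, 565 and 960 CPM (0.14 ± 0.15). All 3 chains were low in pair 1, like Col1a1 and Col1a2, but no pair differed by more than 0.37 in size. The count ratio of Col6a1 to Col6a2 ranged from 1.30 to 1.87 and that of Col6a3 to Col6a1 from 1.30 to 2.19. Col6a4, Col6a5 and Col6a6, the alternative chains, were not tested and had at most 5, 3 and 9 counts in a sample.

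**Figure D4:**
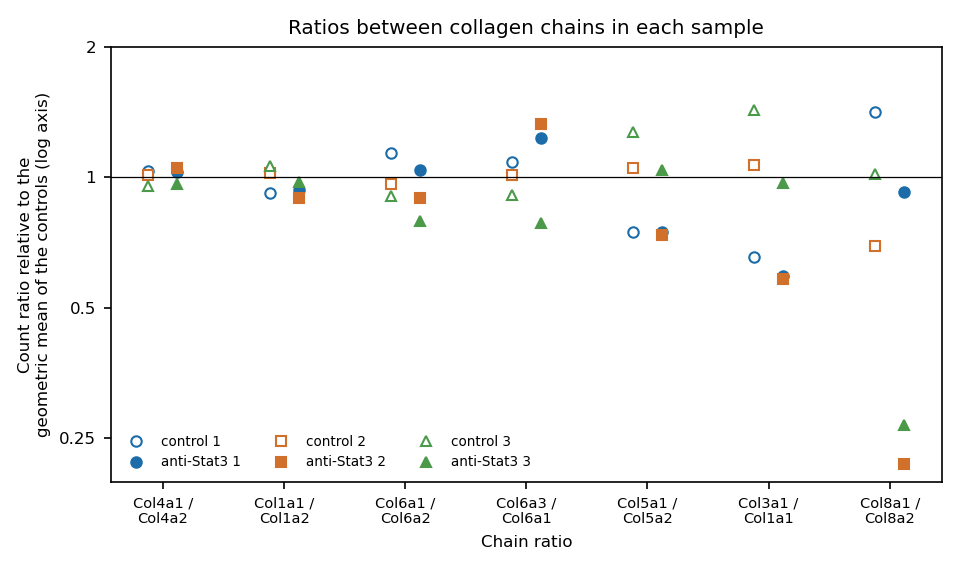
Count ratios between 7 pairs of collagen chains in each sample, each divided by the geometric mean of the 3 controls (y axis, log scale), with open symbols for control and filled symbols for anti-Stat3 siRNA (x axis, the ratio). The points of Col4a1 to Col4a2 cover a 1.10-fold range and those of Col8a1 to Col8a2 a 6.51-fold range.

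Transmembrane collagens had low levels, with at most 4.02 CPM in any sample. Col23a1, found on the surface of epithelial and tumour cells, had 2.30, 4.02 and 2.76 CPM under control siRNA and 3.57, 1.01 and 1.15 CPM under anti-Stat3 siRNA. It passed as lower in blocked edgeR without pair 1 (-1.64 ± 0.35, SE, adjusted p = 0.013), but not in blocked DESeq2 without pair 1 (adjusted p = 0.279). On all 6 samples the change was -0.75 ± 0.48 (blocked edgeR adjusted p = 0.617). Col17a1, which anchors the basal layer of epithelia, had 0.64 to 1.96 CPM under control siRNA and 0.20 to 1.07 CPM under anti-Stat3 siRNA, lower in each pair. Col25a1 had at most 7 counts and Col13a1 at most 1 count in a sample.

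Multiplexins carry interrupted collagen domains and a C-terminal part that can be cleaved off, as endostatin is from Col18a1. Col18a1 had 63.1, 101 and 62.4 CPM under control siRNA and 73.5, 78.7 and 62.2 CPM under anti-Stat3 siRNA. Col15a1 was highest in pair 2, with 99.3 and 65.8 CPM against 8.59 to 14.2 CPM in the other samples. Its pair changes were -0.72, -0.59 and -0.03, with -0.46 ± 0.15 (SE) in blocked edgeR (adjusted p = 0.319). Col7a1, the anchoring fibril that ties basement membranes to the stroma, had 71.5, 108 and 33.2 CPM under control siRNA and 85.9, 104 and 43.4 CPM under anti-Stat3 siRNA (blocked edgeR change 0.20 ± 0.12, adjusted p = 0.602). Col28a1, a chain known from peripheral nerve, had 0.68, 3.70 and 16.7 CPM under control siRNA and 0.19, 2.42 and 9.82 CPM under anti-Stat3 siRNA. It was lower in each pair, differed more between pairs than between siRNAs and did not pass (-0.79 ± 0.23, blocked edgeR adjusted p = 0.237). Col26a1 had 1 count in all 6 samples together. In 4 genes, Col13a1, Col22a1, Col26a1 and Col6a5, no sample had more than 3 counts.

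Genes that make, process and bind collagen gave few calls. Of 17 tested enzymes and chaperones of chain hydroxylation and folding 0 passed in edgeR with the group alone or with the block, in DESeq2 or in limma-voom. Their median change was -0.073 on the log2 scale, and 3, all lower, had an unadjusted p under 0.05 in blocked edgeR, beside 5.2% of all genes lower at that threshold. These were P4ha2, a prolyl hydroxylase subunit (-0.55 ± 0.19, SE, adjusted p = 0.354), and the lysyl hydroxylases Plod1 (-0.45 ± 0.15) and Plod2 (-0.36 ± 0.13), each lower in all 3 pairs. Serpinh1, the collagen chaperone HSP47, had pair changes of 0.11, -0.16 and -0.04. Of 10 tested genes of procollagen export and processing, with a median of -0.12, 0 passed in any of the 5 fits. The propeptide proteases differed among themselves. Bmp1 and Adamts2 had pair changes of 0.0029, -0.71 and -0.67 and of 0.021, -0.94 and -0.53, whereas Tll1 was higher in each pair, by 0.47, 1.29 and 0.05.

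Of 6 crosslinking genes, with a median of -0.15, 0 passed in any of the 5 fits, and 0 had an unadjusted p under 0.05 in blocked edgeR. Lox, a lysyl oxidase, had 4342, 5236 and 5546 CPM under control siRNA and 4279, 4237 and 3540 CPM under anti-Stat3 siRNA, which did not overlap (-0.32 ± 0.16, SE, blocked edgeR adjusted p = 0.528). It was the 1 crosslinking gene of which this held, beside 2.23% of all genes that were lower without overlap. Of the 10 tested export and processing genes 1, Sec24d, was also lower without overlap. Among 15 tested proteoglycans and organisers of fibrils 2 rose in blocked DESeq2 and 0 fell, beside 0.873% and 0.783% of all genes, with a list median of -0.076 in edgeR with the group alone. Ogn, the small leucine-rich proteoglycan osteoglycin, had 45.5, 227 and 98.7 CPM under control siRNA and 68.5, 406 and 171 CPM under anti-Stat3 siRNA. It rose by 0.74 ± 0.14 (SE, adjusted p = 3.0e-05). Aspn, asporin, a proteoglycan of the same family that binds type I collagen, had 26.4, 122 and 73.6 CPM against 37.2, 261 and 167 CPM and rose by 0.94 ± 0.18 (adjusted p = 6.6e-05). Both were higher in each pair, with overlapping groups, and neither passed in blocked edgeR (adjusted p = 0.145 for each).

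Among 8 collagen-degrading proteases, with a median of -0.13, Mmp13, a collagenase of fibrils that the study itself names, fell in blocked DESeq2 by 1.72 ± 0.32 on the log2 scale (adjusted p = 6.6e-05) and 0 rose, beside 0.783% of all genes lower and 0.873% higher. It did not pass in blocked edgeR (adjusted p = 0.16) or blocked limma-voom (adjusted p = 0.124). Its values were 40.9, 18.2 and 5.28 CPM under control siRNA and 7.96, 10.4 and 1.23 CPM under anti-Stat3 siRNA. Ctsk, the collagen-degrading cathepsin K, had 134, 127 and 120 CPM against 143, 185 and 163 CPM and did not pass in blocked DESeq2 (0.36 ± 0.15, adjusted p = 0.322). Its groups did not overlap, as in 1 of the 8 proteases, beside 2.45% of all genes that were higher without overlap. Of 9 tested collagen receptors and uptake genes, with a median of -0.043, 0 passed in any of the 5 fits. Lower without overlap of the groups was 1 of the 9, beside 2.23% of all genes. At an unadjusted p under 0.05 in blocked edgeR 1 was lower and 0 higher, beside 5.2% and 5.63% of all genes. The 1 gene was Itga1, a subunit of an integrin that binds collagen (-0.50 ± 0.20, SE, adjusted p = 0.427).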

How the data were processed

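TruSeq libraries were made from poly(A) RNA extracted with TRIzol, per the labels' protocols. The submitters' processing notes name TopHat2 2.0.10, HTSeq and the build mm9. What the authors deposited is a table of raw, whole-number counts for each gene symbol. Use of strand and the treatment of shared reads are not given in the sources used here, and chains that overlap other genes are therefore uncertain. The 6 columns were matched to samples by group and number.

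Counts were tested in R 4.3.3 with edgeR 4.0.16 (quasi-likelihood F test, TMM, filterByExpr at a minimum count of 10 and 15 in total, 13284 genes). The model held the group alone, and p-values were adjusted over all tested genes (Benjamini-Hochberg, threshold 0.05). Pair changes use log2 CPM with a prior count of 2. The same fit with the pair as a block, DESeq2 1.42.0 with and without it, and limma-voom (limma 3.58.1) with it were alternatives. Across genes, the deviations of same-numbered samples from their group means had correlations of 0.83, 0.82 and 0.83, so the numbers in the titles were taken to pair the samples. All other pairings were at -0.16 or below. Deviations from a group mean sum to 0, so these negative values follow largely from the positive ones and add no separate evidence.

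Chains named with full values were those called in any fit, the 10 most abundant, the 2 most abundant of each class and those with the same direction in all pairs and groups that do not overlap. Other chains were named after their values were seen. Members, lists and classes were chosen with earlier results of these data known.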

Additional observations from a re-analysis of the deposited data

How the results depend on the processing

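Counts of calls depended on the test and on pair 1. Over all genes edgeR with the group alone called 0, blocked edgeR and blocked limma-voom 8 each, DESeq2 17 with the group alone and 220 with the replicate block. Of the collagen chains only blocked DESeq2 called any on all 6 samples, 2. With a sample or pair left out, the counts ranged from 0 to 703 over all genes and from 0 to 5 over the chains. The highest counts came without pair 1, and without control sample 1 the group fit called 40 genes and 0 chains. Stat3 passed with the block in edgeR (-2.38), DESeq2 (-2.38) and limma-voom (-2.39) and in DESeq2 with the group alone (-2.33), with -2.55 to -2.03 when a sample or pair was left out; the blocked edgeR call was lost without pair 3 (adjusted p = 0.26). The median of the chains was 0.035 without a filter on low counts, where 44 chains were tested, and ranged from -0.35 to 0.032 with a sample or pair left out. With all 6 samples, 0 of 21 named chains turned direction. With a sample or pair left out 7 did, with ranges of -0.41 to 0.27 for Col6a1, -0.22 to 0.30 for Col6a3, -0.53 to 0.065 for Col1a2, -0.20 to 0.19 for Col18a1, -1.98 to 1.08 for Col15a1, -2.43 to 0.91 for Col28a1 and -0.21 to 0.58 for Col7a1. None of these 7 was called on all 6 samples, and the cause was not tested. Leaving out pairs in DESeq2 was added after the data were seen. RLE size factors and a term for the naming scheme of the descriptions, which sets pair 3 apart, changed no count of calls. What difference could be detected in chains with a few counts per sample was not tested.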
